A study of Homo sapiens with 6 samples.

Results

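Transcripts of 10 genes that carry or receive insulin-like growth factor (IGF) and insulin signals were followed in HepG2 cells, a line grown from a human liver tumour and often used in place of hepatocytes. The members were taken by symbol from the deposited count table: the binding proteins IGFBP1, IGFBP2, IGFBP3, IGFBP4 and IGFBP6, the receptors IGF1R, INSR and IGF2R, and the receptor substrates IRS1 and IRS2. All 10 were found among the 52408 genes of the table, and all 10 passed the filter on low counts. The treated group had 50 µM of ellagic acid (EA), a polyphenol of fruits and nuts, in its medium for 24 h, added from a stock in dimethyl sulfoxide (DMSO). The control group had as much DMSO alone for as long. RNA was sequenced from 3 libraries in each group. The labels do not say whether the 3 came from separate cultures, so the p-values measure the spread between these libraries, which may be technical.

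IGF-I, IGF-II and insulin are related hormones. The IGFs bind the tyrosine kinase receptor encoded by IGF1R, insulin binds its close relative encoded by INSR, and both receptors phosphorylate IRS1 and IRS2, docking proteins that bring in phosphoinositide 3-kinase (PI3K) and through it the kinase AKT. AKT keeps FOXO transcription factors out of the nucleus. IGF binding proteins are secreted and hold IGFs in the extracellular fluid. The liver makes much of the circulating IGF system, and in hepatocytes IGFBP1 and IRS2 are classic genes that insulin represses and FOXO factors activate. IGF2R, the cation-independent mannose 6-phosphate receptor, has no kinase. It takes IGF-II into the cell for breakdown and carries new enzymes to lysosomes.

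Promoter sequence is shown for both receptor substrates, whose transcripts moved in opposite directions, and for IGF2R, the receptor that was lower. Each line gives the 250 bases before the RefSeq start of the gene on GRCh38.p14, 5′ to 3′ on the strand of the gene, outside the transcribed region. Capitals mark the core of the insulin response element (TGTTTTG) and the palindromic E-box (CACGTG), both searched on either strand, and no matches of them overlapped in these windows. The choice of these motifs was made with the expression values known.
IRS2, chr13:109786584-109786833, minus strand: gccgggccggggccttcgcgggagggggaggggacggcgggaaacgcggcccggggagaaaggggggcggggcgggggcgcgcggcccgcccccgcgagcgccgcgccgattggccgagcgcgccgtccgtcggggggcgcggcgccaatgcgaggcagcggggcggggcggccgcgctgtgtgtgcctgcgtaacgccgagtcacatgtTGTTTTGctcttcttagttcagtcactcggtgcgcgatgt
IRS1, chr2:226799821-226800070, minus strand: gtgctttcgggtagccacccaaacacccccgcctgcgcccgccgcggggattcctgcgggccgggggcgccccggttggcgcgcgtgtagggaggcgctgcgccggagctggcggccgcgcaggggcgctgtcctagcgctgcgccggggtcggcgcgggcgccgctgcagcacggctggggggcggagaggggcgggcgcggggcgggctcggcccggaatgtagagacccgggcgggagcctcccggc
IGF2R, chr6:159968832-159969081, plus strand: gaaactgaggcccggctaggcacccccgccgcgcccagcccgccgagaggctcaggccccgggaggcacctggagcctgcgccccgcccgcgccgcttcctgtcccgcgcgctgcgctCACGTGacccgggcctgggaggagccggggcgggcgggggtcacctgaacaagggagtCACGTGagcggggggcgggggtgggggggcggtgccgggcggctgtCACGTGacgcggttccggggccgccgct
TGTTTTG began 40 bases before the IRS2 start and was found in no other member's window, among the 9 members for which a sequence was used. IGFBP1 was not searched. TGTTTTG occurs in 4.3% of 35116 windows of the same length. CACGTG stood in the IGF2R window in 3 places, beginning 132, 74 and 28 bases before the start, and in no other member's window. At least 1 CACGTG occurs in 6.34% of windows, and 3 or more occur in 28 of 35116. The IRS1 window held neither motif. A match describes letters in the window and does not show that a factor binds there.

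The libraries held 15738089 to 19202292 counted reads with EA and 22987425 to 25973621 with DMSO. EA replicate 3 lay apart from the other 2 EA libraries on the second principal component (-33.8, against 18.5 and 14.2). That component carried 2.49% of variance, and the first, on which the groups parted, carried 94.3%. Its part in each member's value is given below. The line was checked against 10 hepatocyte genes and 7 genes of other cell types. The hepatocyte genes had reads in all libraries. Of them 9 fell and 1, APOA1, rose, the last call being lost when 1 library was left out (adjusted p up to 0.127 in edgeR's test). Their summed level was 11769 to 12149 CPM (read counts scaled to library size) with EA and 47829 to 50603 with DMSO. APOB took the most of the DMSO sum, with a mean of 29447 CPM with DMSO and 3080 with EA, and so weighs heavily in the difference. The blood cell genes PTPRC and CD68 were at 0 reads in all 6 libraries. The summed level of the 7 genes was 70.2 to 71.8 CPM with EA and 36.0 to 36.9 with DMSO, of which the smooth muscle actin gene ACTA2 took the most. Of these, 3 rose, 1 fell and 3 were under the filter. The part of these shifts in the values below was not tested. Because RNA came from whole cultures, fewer cells that express a gene and less of its RNA per cell cannot be told apart.

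With EA, transcripts of all 5 binding proteins, of both receptor tyrosine kinases and of IRS2 were higher, while those of IRS1 and IGF2R were lower. IGFBP3 and IRS2 differed most, at 17.7 and 15.3 times the DMSO level, followed by IGFBP1 at 5.71 times. All 10 members passed an adjusted p of 0.05, 8 of them higher and 2 lower. Of 15648 genes tested across the table, 81.0% passed, 40.5% in each direction, so that passing by itself does not set these genes apart. The groups did not overlap for any of the 10 members, and this held for 82.9% of all genes tested. The members higher by at least 2-fold were IGFBP1, IGFBP3, IGFBP4 and IRS2, 4 of 10, and none was lower by as much. IGFBP4 passed narrowly (log2 fold change 1.01) and fell short without EA replicate 2 (0.97), DMSO replicate 1 (0.99) or DMSO replicate 3 (0.95) and with no low-count filter (0.88). The share of all genes was 23.4% higher and 21.5% lower by that measure.

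**Figure D1:**
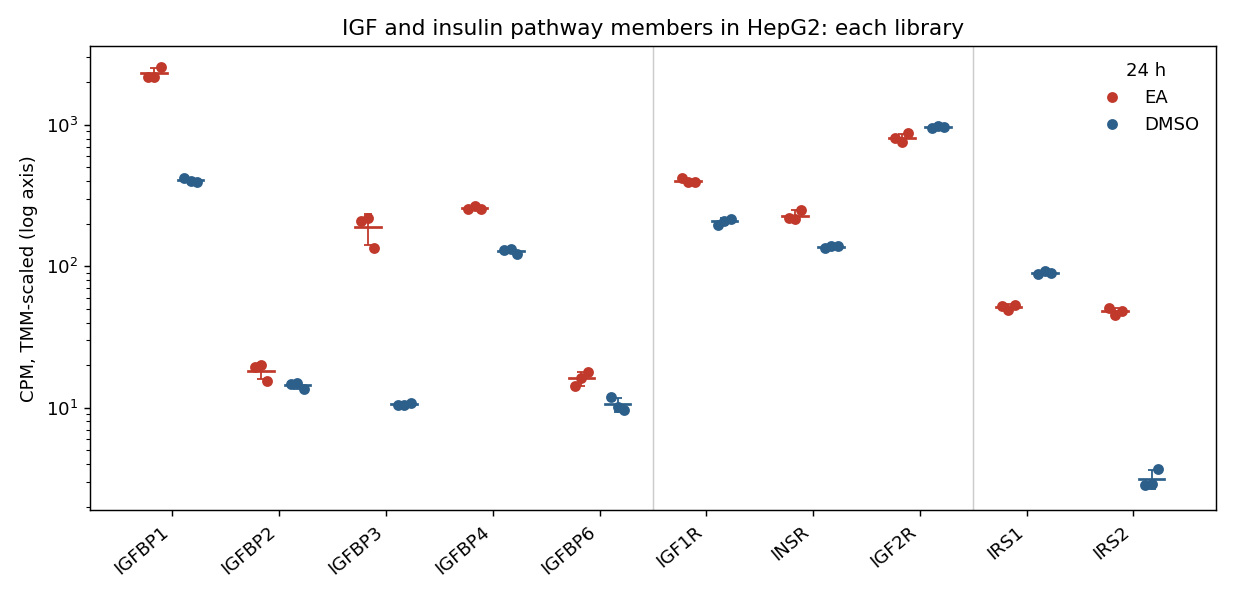
Expression of each member in every library, in CPM on TMM-scaled library sizes (log axis), with the mean and SD of 3 libraries for EA (red, left) and DMSO (blue, right); grey lines part the binding proteins, receptors and substrates. EA points lie above all DMSO points for 8 genes and below them for IGF2R and IRS1.

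IGFBP1 (ENSG00000146678), which encodes the liver's short-term, insulin-regulated binding protein, had the highest level per kilobase of the members in both groups. It was read at 2183, 2183 and 2561 CPM in the EA libraries and at 420, 401 and 391 CPM in the DMSO libraries. The lowest EA library was far above the highest DMSO library. The log2 fold change was 2.51 (SE 0.08, adjusted p = 3.63e-13 in the quasi-likelihood test of edgeR, Benjamini-Hochberg adjusted). EA replicate 3 was the highest of the 3, and without it the log2 fold change was 2.41. IGFBP1 and IGFBP3 are neighbouring coding genes on chromosome 7 in the GENCODE 29 annotation and lie on opposite strands.

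IGFBP3 (ENSG00000146674) encodes the main carrier of IGFs in plasma, made in liver largely by non-parenchymal cells. Its level was 209, 221 and 134 CPM in the EA libraries, against 10.5, 10.5 and 10.9 CPM in the DMSO libraries. EA replicate 3 was low within its group and still far above any DMSO library. The log2 fold change was 4.15 (SE 0.22, adjusted p = 3.26e-06 in edgeR's test), and 4.32 without EA replicate 3. Among all genes tested, 95.3% had a smaller absolute log2 fold change. In raw reads IGFBP3 had 2542 to 4173 with EA and 242 to 276 with DMSO, so neither group rested on a handful of reads.

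IGFBP4 (ENSG00000141753), which encodes a binding protein that inhibits IGF action until it is cleaved by the protease PAPP-A, was read at 255, 268 and 253 CPM with EA and at 129, 133 and 123 CPM with DMSO. These libraries lay close together within each group. The log2 fold change was 1.01 (SE 0.06, adjusted p = 8.04e-10 in edgeR's test), and 1.00 without EA replicate 3. IGFBP6 (ENSG00000167779), whose product prefers IGF-II, was at 14.3, 16.1 and 17.9 CPM with EA and at 11.9, 10.1 and 9.67 CPM with DMSO. Its log2 fold change was 0.61 (SE 0.12, adjusted p = 0.000259 in edgeR's test), and 0.50 without EA replicate 3.

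IGFBP2 (ENSG00000115457), another binding protein of liver and of many tumours, showed the smallest difference of the family. It was read at 19.4, 19.9 and 15.5 CPM in the EA libraries and at 14.60, 15.01 and 13.45 CPM in the DMSO libraries. The lowest EA library, replicate 3, lay just above the highest DMSO library. Its log2 fold change was 0.35 (SE 0.11, adjusted p = 0.00999 in edgeR's test), and 0.43 without EA replicate 3. The call was lost without EA replicate 2 (log2 fold change 0.27, adjusted p = 0.0612 in edgeR's test) and without DMSO replicate 3 (0.27, adjusted p = 0.0841 in edgeR's test), as well as with no low-count filter (0.22, adjusted p = 0.108 in edgeR's test).

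**Figure D2:**
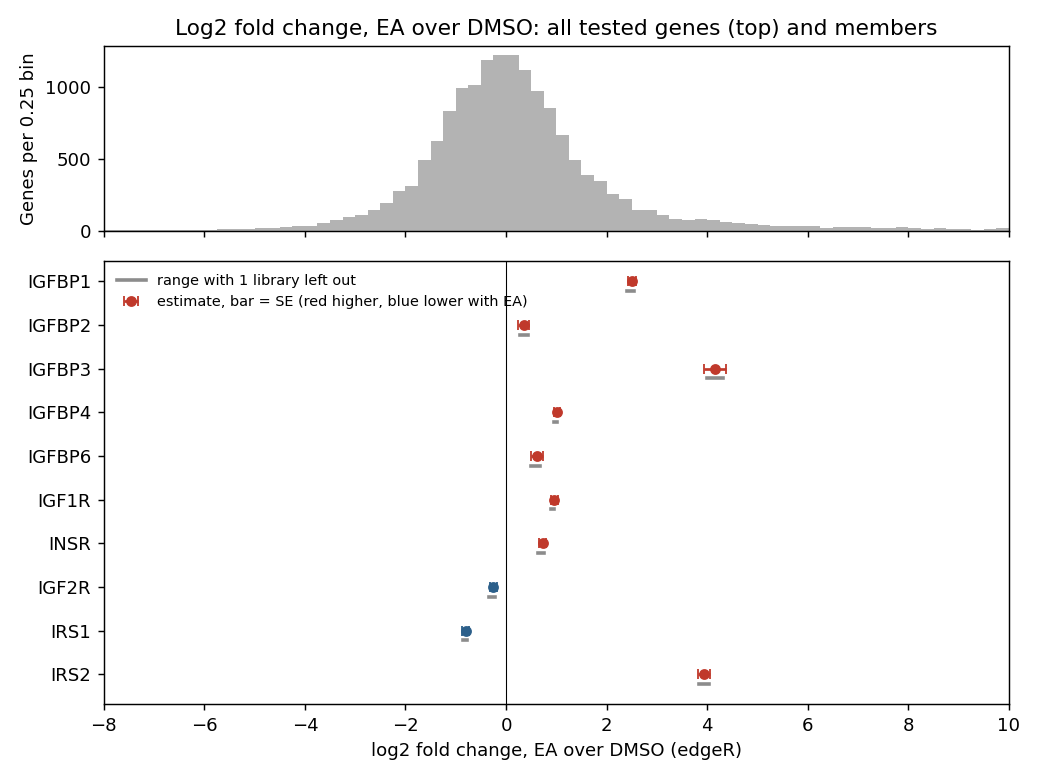
Log2 fold change of EA over DMSO for the 10 members (bottom; point and SE from edgeR, grey line the range when any 1 of the 6 libraries is left out) under the distribution over 15648 genes tested (top, in bins of 0.25, with values beyond the axis in its end bins). IGFBP3 (4.15) and IRS2 (3.93) lie far to the right of most genes, IGF2R (-0.25) and IRS1 (-0.80) to the left of 0.

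The summed RNA of the binding proteins was larger with EA, and IGFBP1 held a larger share of it. To set genes side by side, CPM was divided by the length of all annotated exons of a gene, and the 6 classic genes IGFBP1 to IGFBP6 were summed. The sum was 1497, 1507 and 1710 CPM per kilobase in the EA libraries and 327, 316 and 305 in the DMSO libraries, 4.97 times as much with EA (exact permutation test, 2-sided, p = 0.1, the smallest that 3 against 3 libraries can give). IGFBP1 made up 88.8% ± 1.57 of the sum with EA and 77.4% ± 0.498 with DMSO (SD, n = 3 each). IGFBP4, though its own level was higher, held 7.51% ± 0.710 with EA and 18.5% ± 0.581 with DMSO. IGFBP3 held 2.66% ± 0.821 with EA and 0.736% ± 0.0397 with DMSO. IGFBP6 and IGFBP2 together with IGFBP5 made up the small rest. IGFBP5 had 0, 1 and 0 reads with EA and 2, 0 and 1 with DMSO.

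**Figure D3:**
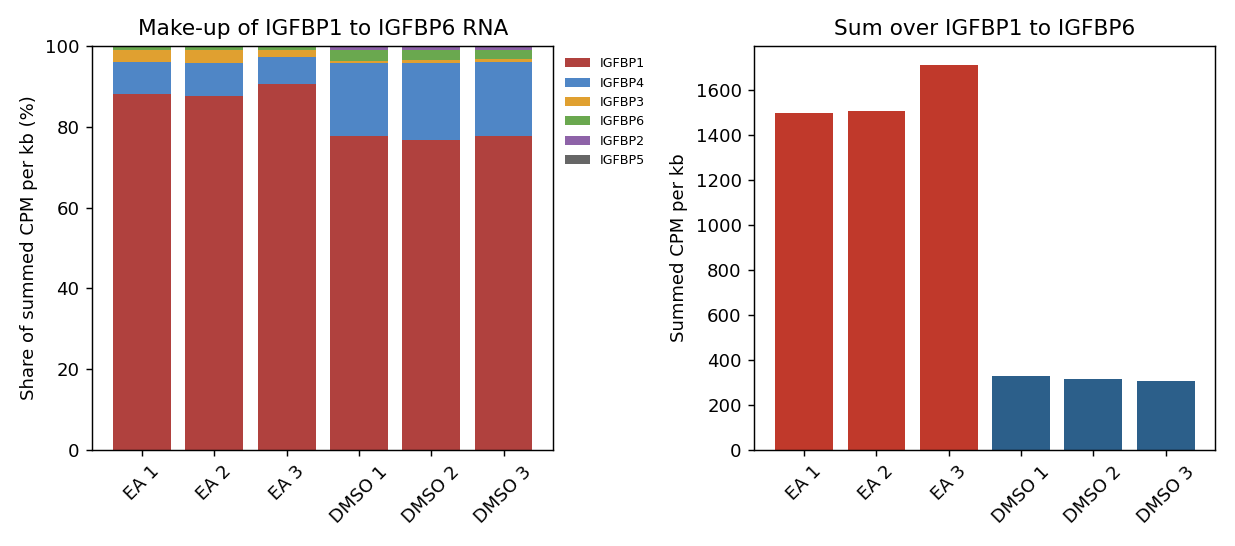
Left, share of each gene in the summed CPM per kilobase of IGFBP1 to IGFBP6 in each library; right, that sum, for EA (red) and DMSO (blue) libraries. IGFBP1 takes 87.6% to 90.6% in the EA libraries and 76.8% to 77.7% in the DMSO libraries, and the sum is 1497 to 1710 with EA and 305 to 327 with DMSO.

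Both receptor kinases were moderately higher with EA. IGF1R (ENSG00000140443) was read at 418, 397 and 393 CPM with EA and at 196, 209 and 217 CPM with DMSO. Its log2 fold change was 0.96 (SE 0.07, adjusted p = 2.1e-09 in edgeR's test), and 0.95 without EA replicate 3. INSR (ENSG00000171105) was at 218, 215 and 252 CPM with EA and at 135, 139 and 139 CPM with DMSO. EA replicate 3 was the highest INSR library, and the log2 fold change of 0.73 (SE 0.07, adjusted p = 1.38e-07 in edgeR's test) was 0.63 without it. For both receptors every EA library lay above every DMSO library. Gene-level counts do not separate the INSR splice forms with and without exon 11, which differ in their affinity for IGF-II.

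IGF2R (ENSG00000197081), the scavenging receptor, went the other way by a small amount. It had 804, 758 and 868 CPM in the EA libraries and 942, 982 and 968 CPM in the DMSO libraries. The groups stayed apart, with the highest EA library, replicate 3, below the lowest DMSO library. It fell by 0.25 on the log2 scale (SE 0.07, adjusted p = 0.00339 in edgeR's test), and by 0.33 without EA replicate 3. Against a minimum fold of 1.2 it was not called (adjusted p = 0.367 in edgeR's test). A transcribed pseudogene that the annotation places within the IGF2R gene on the same strand, AL353625.1 (ENSG00000213073), shares no exon with it and was counted apart. That pseudogene had 412, 458 and 348 reads with EA and 125, 116 and 103 with DMSO (log2 fold change 2.29, SE 0.14, adjusted p = 1.01e-09 in edgeR's test). The antisense transcript AIRN had 1, 1 and 4 reads with EA and 1, 2 and 6 with DMSO. The sources used here do not give the strand setting of the counting, and reads from opposite strands may not have been told apart.

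The receptor substrates moved in opposite directions. IRS2 (ENSG00000185950), the substrate that carries much of insulin's action in liver, was read at 50.9, 45.2 and 48.3 CPM in the EA libraries and at 2.84, 2.87 and 3.70 CPM in the DMSO libraries. In raw reads this was 818, 854 and 914 with EA and 73, 66 and 94 with DMSO. The log2 fold change of 3.93 (SE 0.12) had an adjusted p of 1.61e-13 in edgeR's test. This fold change stayed between 3.84 and 4.04 when any 1 library was left out, and was 3.90 without EA replicate 3. IRS1 (ENSG00000169047), the substrate best known from muscle and fat and often abundant in liver tumour cells, was at 52.5, 49.4 and 53.3 CPM with EA and at 87.8, 92.7 and 89.7 CPM with DMSO. The groups did not overlap for either substrate, with all EA libraries above the DMSO libraries for IRS2 and below them for IRS1. IRS1 fell by 0.80 on the log2 scale (SE 0.07, adjusted p = 3.08e-08 in edgeR's test). Without EA replicate 3 its log2 fold change was -0.85. An antisense gene whose exons overlap those of IRS2, AL162497.1, was not found in the deposited count table. The strand setting is not known, and whether reads from that gene were counted as IRS2 was not tested.

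Ratios of read counts within a library do not depend on how libraries are scaled, and 5 pairs were compared with a 2-sided exact permutation test. The smallest p that 3 against 3 libraries allow is 0.1, so none could pass 0.05; adjusted values are over the 5 pairs. The IRS2 to IRS1 ratio was 0.969, 0.916 and 0.906 in the EA libraries and 0.0324, 0.0310 and 0.0412 in the DMSO libraries, a difference of 4.75 on the log2 scale (exact p = 0.1, adjusted 0.125). Per kilobase of exons, IRS2 stood at 1.138 times IRS1 with EA and at 0.0426 times with DMSO. The ratio of IGF2R to IGF1R was 1.92, 1.91 and 2.21 with EA and 4.803, 4.702 and 4.458 with DMSO (log2 difference -1.21, exact p = 0.1, adjusted 0.125). All EA libraries thus lay below all DMSO libraries.

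The balance of the kinase receptors moved less. The INSR to IGF1R ratio was 0.521, 0.541 and 0.641 with EA and 0.690, 0.664 and 0.638 with DMSO, so that EA replicate 3 fell within the DMSO range (log2 difference -0.23, exact permutation p = 0.2, adjusted 0.2). Without that library the difference was -0.32. Within the binding proteins, the IGFBP1 to IGFBP2 ratio was 112, 110 and 165 with EA and 28.8, 26.7 and 29.1 with DMSO (log2 difference 2.17, exact p = 0.1, adjusted 0.125). The IGFBP3 to IGFBP4 ratio was 0.821, 0.826 and 0.532 with EA and 0.0809, 0.0793 and 0.0883 with DMSO (log2 difference 3.10, exact p = 0.1, adjusted 0.125). In both, EA replicate 3 stood apart from the other EA libraries but on the same side of the DMSO libraries.

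**Figure D4:**
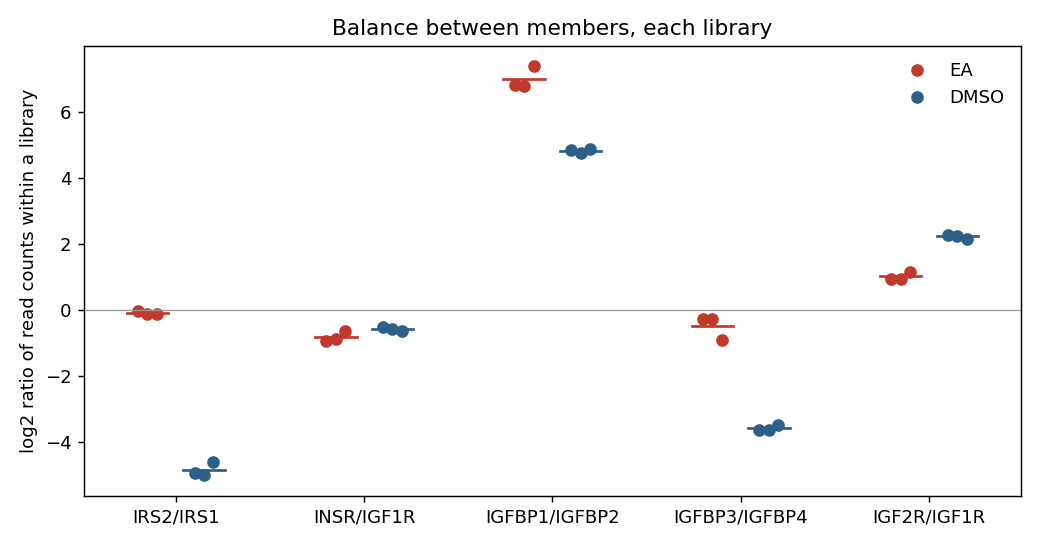
Log2 ratio of read counts of member pairs within each library, EA (red, left) and DMSO (blue, right), with group means as lines. IRS2/IRS1 lies near 0 with EA (mean -0.10) and at -4.85 with DMSO, while for INSR/IGF1R an EA library lies inside the DMSO range.

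The order of the members by level per kilobase changed between the groups. With EA it ran from IGFBP1 (1397 CPM per kilobase) over IGFBP4 (118), IGF2R (45.4), IGFBP3 (41.2), IGF1R (28.9), INSR (21.8), IGFBP6 (11.95), IRS2 (5.92) and IRS1 (5.20) to IGFBP2 (3.83). In this order IGFBP3 overlapped its neighbours IGF2R and IGF1R across libraries, and the other neighbours did not overlap. With DMSO it ran from IGFBP1 (245) over IGFBP4 (58.4), IGF2R (54.0), IGF1R (14.9), INSR (13.2), IRS1 (9.05), IGFBP6 (7.84), IGFBP2 (3.01) and IGFBP3 (2.32) to IRS2 (0.385), and only IRS1 and IGFBP6 overlapped as neighbours. IRS2 thus stood 8th with EA and last with DMSO, and IGFBP3 4th with EA and 9th with DMSO. The place of IGFBP2 depended on the length used, since its annotated exons span 4767 bases but its longest coding transcript 1439. By longest coding transcripts it was 8th with EA and 6th with DMSO, IGFBP3 stood above IGF2R with EA, and IGF2R stood above IGFBP4 with DMSO. Per kilobase of all annotated exons, IRS2 lay above 59.7% of all genes tested with EA and above 16.5% with DMSO, and IGFBP3 above 93.9% with EA and 40.1% with DMSO.

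The other genes of the pathway went both ways. Of 95 genes listed by role, 83 in 10 lists were tested, of which 41 rose, 28 fell and 14 were not called. That is 49.4% higher and 33.7% lower, against 40.5% in each direction over all genes, and the median log2 fold change was 0.17, against 0.00 over all genes tested. Among the ligands, insulin (INS) was at 0 reads in all libraries, which allows up to 0.117 to 0.187 CPM in a single library, and IGF1 had 2, 5 and 4 reads with EA and 1, 2 and 2 with DMSO. IGF2 (ENSG00000167244), the fetal growth factor that liver tumours often express, was read at 1881, 1835 and 1622 reads with EA and 998, 1000 and 979 with DMSO. It averaged 100 ± 15.9 CPM with EA and 40.3 ± 2.79 CPM with DMSO (SD, n = 3 each; log2 fold change 1.31, SE 0.10, adjusted p = 8.2e-08 in edgeR's test). Exons of IGF2 overlap those of the read-through gene INS-IGF2, with 87, 81 and 52 reads with EA and 113, 113 and 129 with DMSO, and those of the antisense gene IGF2-AS, with 53, 70 and 54 with EA and 45, 31 and 29 with DMSO, so its value is uncertain.

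Other binding proteins and related genes were scarce. Of 4, IGFBPL1 fell (log2 fold change -1.15, 9 to 13 reads with EA and 31 to 34 with DMSO). IGFBP7 (-0.28) and IGFALS (-0.52), the acid-labile subunit of the circulating IGF complex, were not called, and IGFBP5 was under the filter. In the list of proteases that cleave binding proteins and their inhibitors, 4 of 6 tested genes rose, 1 fell and 1 was not called (median 0.52). Without EA replicate 3, or with no filter, 2 fell. The protease gene PAPPA was at 3.13 ± 0.312 CPM with EA and 1.01 ± 0.0633 with DMSO, and its inhibitor STC2 at 160 ± 12.6 with EA and 102 ± 2.26 with DMSO. STC1, another such inhibitor, had 181 reads over the EA libraries and 0 over the DMSO libraries, at least 83.0-fold higher when the DMSO group is set to 3 reads in all. Plasminogen (PLG) fell by 3.34 on the log2 scale (SE 0.28). PAPPA2, HTRA1 and ADAM12 were under the filter.

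Of the 3 genes that process or degrade the hormones, the convertase gene FURIN rose (log2 fold change 0.78, SE 0.07), while the insulin-degrading enzyme IDE (-0.80, SE 0.07) and PCSK4 (-1.44, SE 0.26) fell. Among 13 tested adaptors, 8 rose, 4 fell and 1 was not called (median 0.25). GAB2 was at 74.2 ± 2.45 CPM with EA and 34.3 ± 1.81 with DMSO, CRK and CRKL rose by log2 fold changes of 0.70 and 0.58, and SH2B1, which binds the activated insulin receptor, fell by 1.73. Against a minimum fold of 1.2, 5 adaptors were higher and 2 lower, and with no filter 5 were higher. Another substrate gene, IRS4, had 0 reads throughout, and INSRR, the insulin receptor-related receptor, had 1 read in all.

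The genes listed as inhibitors of the receptors and substrates went both ways: 6 of 16 rose, 6 fell and 4 were not called (median -0.01). Without EA replicate 3, 8 fell, and with no filter 5 rose and 8 fell. GRB10, an adaptor that binds and inhibits both receptor kinases, was at 416 ± 4.91 CPM with EA and 58.9 ± 1.09 CPM with DMSO (log2 fold change 2.82, SE 0.06, adjusted p = 1.43e-14 in edgeR's test). Its relative GRB14, named after its value was seen, fell by 1.61 on the log2 scale (SE 0.15). TRIB1 and SH2B3, which were placed in the same list, rose by 1.82 and 1.49 on the log2 scale. Whether these 2 act on the receptors or substrates was not examined here. ENPP1, a membrane phosphodiesterase that binds the insulin receptor, was at 72.4 ± 4.34 CPM with EA and 263 ± 15.4 with DMSO.

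Of 9 tested genes of PI3K and lipid phosphatases, 4 rose, 4 fell and 1 was not called (median 0.09). The catalytic subunit genes were higher, PIK3CB at 253 ± 9.61 CPM with EA and 70.4 ± 4.16 with DMSO, PIK3CA with a log2 fold change of 0.83 and PIK3CD with one of 0.82. The regulatory subunit genes, which were named after their values had been seen, were lower, with log2 fold changes of -0.42 for PIK3R1, -1.05 for PIK3R2 and -1.04 for PIK3R3. Among 19 genes of AKT, mTOR and their effectors, 10 rose, 8 fell and 1, MTOR, was not called (median 0.21). AKT1 was at 60.9 ± 6.23 CPM with EA and 136 ± 7.80 with DMSO, and AKT2, named after its value was seen, fell by 0.64. RICTOR, a subunit of mTOR complex 2, rose by 2.09 (SE 0.08) and TSC1, an inhibitor of mTOR complex 1, by 1.37 (SE 0.07). TSC2, in the same list and named after its value was seen, fell by 0.75 (SE 0.07).

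**Figure D5:**
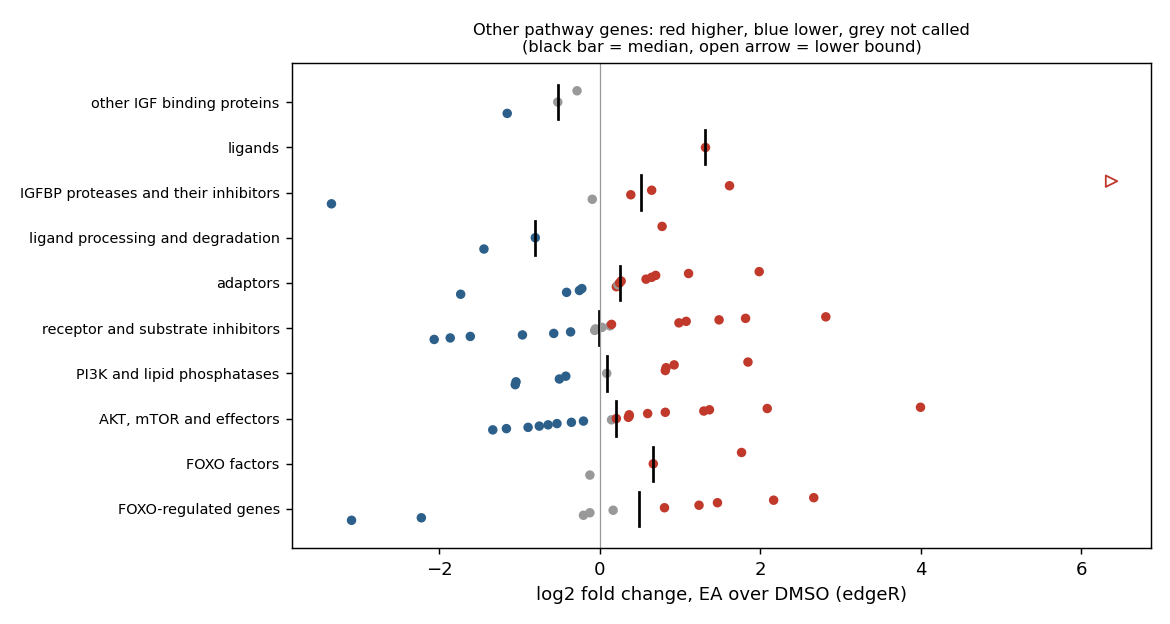
Log2 fold change of EA over DMSO for 83 tested genes in 10 lists of the pathway, red for genes called higher, blue lower and grey not called, with the list median in black; the open arrow is STC1 at its lower bound, a log2 fold of 6.38. Most lists hold members on both sides of 0.

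Among the FOXO factors, FOXO3 was at 249 ± 6.99 CPM with EA and 73.2 ± 0.480 with DMSO (log2 fold change 1.77, SE 0.06), FOXO1 rose by 0.67 (SE 0.08) and FOXO4 was not called (-0.12), though without EA replicate 3 it was lower (-0.30, adjusted p = 0.00475 in edgeR's test). Of 10 tested genes known to be regulated by FOXO factors, besides IGFBP1 and IRS2, 5 rose, 2 fell and 3 were not called (median 0.49). CITED2, CCNG2 and BCL6 rose by log2 fold changes of 2.67, 1.47 and 1.24. PPARGC1A, a coactivator of gluconeogenic genes, fell by 3.09 (SE 0.10). The gluconeogenic gene PCK1 had a log2 fold change of 0.17 and was not called, and G6PC, named after its value was seen, fell by 2.22 (SE 0.50) with 16, 17 and 77 reads in the EA libraries and 266, 205 and 229 in the DMSO libraries. Without EA replicate 3, the highest of its group, G6PC fell by 3.34. TXNIP was not analysed here.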

How the data were processed

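RNA of HepG2 cells was sequenced in 3 EA and 3 DMSO libraries. The submitters' processing notes name HTSeq 0.6.1, HISAT, cutadapt 1.9.1, bcl2fastq 2.17.1.14 and, as build, hg19. The authors deposited unnormalised read counts of 52408 genes. The sources used here give neither annotation release nor strand setting. Genes passing filterByExpr (15648) were scaled by TMM and compared by edgeR's quasi-likelihood test (edgeR 4.0.16, R 4.3.3, robust) with Benjamini-Hochberg adjustment over all genes tested and a threshold of 0.05. CPM are on TMM-scaled library sizes. The SE is the log2 fold change over the square root of F. Exon lengths (15634 of the genes tested) and overlaps were read from GENCODE 29, whose build is GRCh38 and not hg19. Promoters came from RefSeq on GRCh38.p14. Floors of 3 reads cover counting error only.

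The members and gene lists were chosen with earlier results of these data known. All members are named, and of each other list up to 4 called genes with the smallest p, a mean of at least 1 CPM and groups that do not overlap; some that the rule selects are not reported here, and others were named after their values were seen. Alternatives were DESeq2 1.42.0, limma-voom (limma 3.58.1), scaling by RLE, by upper quartiles or by library size, leaving out the filter, a filter of 1 CPM in 3 libraries, an adjusted p of 0.01, a minimum fold of 1.2, thinning to equal depth, a replicate block and each library left out, also, added after the data were seen, for single list genes, and the longest coding transcript as length.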

Additional observations from a re-analysis of the deposited data

How the results depend on the processing

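Direction held for all 10 members under all 17 alternatives run. The call was kept by 8 of them throughout. IGFBP2 lost it under 4 alternatives (no filter, a minimum fold of 1.2, and without EA replicate 2 or DMSO replicate 3) and IGF2R under a minimum fold of 1.2, where 1 member was called lower and 7 higher. With 1 library left out, 7 to 8 members were called higher and 2 lower. Without EA replicate 3, 6794 of 16444 genes tested were called higher and 6819 lower, against 6344 and 6336 of 15648 with all libraries. IGFBP1's share of the binding protein pool was 82.6% with EA and 71.1% with DMSO per read, and 86.2% with EA and 75.0% with DMSO with the longest coding transcript as length, an alternative added after the data were seen. Replicate numbers did not pair the libraries (correlations of deviations between same-numbered libraries from -0.08 to 0.03); with a replicate block 8 members were called higher and 2 lower, 40 and 28 pathway genes, and 6246 and 6291 of all genes. Paired by number, the log2 ratios had an exact p of 0.25, the smallest that 3 pairs can give, or, for INSR/IGF1R, 0.5. With no filter the median log2 fold change was 0.25 over 32015 genes, against 0.00 over the 15648 that passed the filter. All 10 members had lower log2 fold changes without the filter, such as 2.38 for IGFBP1 and 3.8 for IRS2, against 2.51 and 3.93. Of the members, IRS2 had the fewest reads with DMSO, 66 to 94 a library.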

Other observations

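Other genes with IGF in their symbol were looked up after the data had been seen, and the ones below were chosen with their values known. IGFL2 (ENSG00000204866), of the IGF-like family of small secreted proteins, had 412, 493 and 446 reads with EA and 2, 0 and 2 with DMSO. Its antisense neighbour IGFL2-AS1 had 1240, 1351 and 1196 reads with EA and 0, 2 and 5 with DMSO, and the pseudogene IGFL1P1 had 757, 690 and 650 with EA and 1, 5 and 5 with DMSO. IGFL4 went the other way, with 30, 32 and 64 reads with EA and 232, 191 and 258 with DMSO. These genes are close relatives, and the sources used here do not say how the counting treated shared reads or opposite strands. IGFN1, a gene known from skeletal muscle, was at 44.3 ± 6.53 CPM with EA and 2.96 ± 0.420 with DMSO (SD, n = 3 each).

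The genes of the RNA-binding proteins that were named for binding IGF2 transcripts moved little beside these. IGF2BP1 was at 426 ± 36.5 CPM with EA and 594 ± 13.7 with DMSO (log2 fold change -0.48, adjusted p = 1.5e-05 in edgeR's test). IGF2BP3 had a log2 fold change of -0.27 and IGF2BP2 one of 0.19 (adjusted p = 0.00274 and 0.0315 in edgeR's test).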
